A study of Mus musculus with 17 samples.

Results

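The genes described here encode the conjugating enzymes of phase II drug metabolism: the glutathione S-transferases (GST), the UDP-glycosyltransferases (UGT) and the sulfotransferases (SULT). Members were all genes whose mouse symbol begins with Gst plus a letter and a number, Ugt plus a number or Sult plus a number, leaving out 7 pseudogene names, which gave 65 of the 52545 genes in the table: 22 GST, 22 UGT and 21 SULT genes. They were measured by RNA sequencing of non-tumorous liver from 17 mice (male, C57BL/6J, 32 weeks old), with a library for each. The 6 CLDN1 mAb mice ate CDA-HFD, a high-fat diet that lacks choline and supplies defined amino acids, and had received 100 mg/kg DEN (diethylnitrosamine, a liver carcinogen) once in week 1. A monoclonal antibody against the junction protein claudin-1 was then injected into their peritoneum, 500 µg 1 time a week for 16 weeks. The 6 Vehicle Control mice had the same diet and DEN and were injected with PBS on the same schedule, and the 5 Regular diet mice had neither DEN, CDA-HFD nor injections. A difference from Regular diet therefore joins diet, carcinogen and injections, which cannot be told apart.

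Phase II enzymes attach a polar group to drugs, toxins, hormones, bilirubin and bile acids, so that the product can be exported into bile or urine. GSTs join glutathione to reactive electrophiles, UGTs transfer a sugar, mostly glucuronic acid from UDP-glucuronic acid, and cytosolic SULTs transfer sulfate from the donor PAPS. Hepatocytes hold most of these enzymes in liver, many family members lie side by side in gene clusters, and several are set by xenobiotic receptors, by NRF2 (the factor of the antioxidant response) or, in mice, by sex.

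Promoters are shown for 2 pairs of related genes that moved in opposite directions, Gstp1 with Gstp2 and Gsta1 with Gsta3, and for Sult1e1, the member with the largest fold change. Each runs 5′ to 3′ on the gene's strand, from 250 bases before to 50 after the transcription start, as given by RefSeq on GRCm38.p6: Gsta1 at chr9:78230419-78230718 (plus strand), Gsta3 at chr1:21240335-21240634 (plus strand), Gstp1 at chr19:4037863-4038162 (minus strand), Gstp2 at chr19:4042172-4042471 (minus strand) and Sult1e1 at chr5:87591562-87591861 (minus strand). Capitals mark matches, on either strand, to the core of the antioxidant response element (TGACNNNGC), the AP-1 motif (TGANTCA) or the core of the xenobiotic response element (GCGTG).
Gstp1: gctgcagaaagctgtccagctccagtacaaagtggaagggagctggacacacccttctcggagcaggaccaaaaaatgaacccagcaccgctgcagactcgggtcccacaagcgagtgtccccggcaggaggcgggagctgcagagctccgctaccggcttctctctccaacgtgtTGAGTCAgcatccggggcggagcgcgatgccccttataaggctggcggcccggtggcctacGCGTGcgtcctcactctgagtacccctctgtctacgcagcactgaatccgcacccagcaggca
Gstp2: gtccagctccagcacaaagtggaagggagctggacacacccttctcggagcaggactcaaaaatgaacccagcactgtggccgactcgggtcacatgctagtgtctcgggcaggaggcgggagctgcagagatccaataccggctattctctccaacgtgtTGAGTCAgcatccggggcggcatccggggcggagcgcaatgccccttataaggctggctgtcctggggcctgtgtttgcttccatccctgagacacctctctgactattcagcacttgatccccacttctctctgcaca
Gsta1: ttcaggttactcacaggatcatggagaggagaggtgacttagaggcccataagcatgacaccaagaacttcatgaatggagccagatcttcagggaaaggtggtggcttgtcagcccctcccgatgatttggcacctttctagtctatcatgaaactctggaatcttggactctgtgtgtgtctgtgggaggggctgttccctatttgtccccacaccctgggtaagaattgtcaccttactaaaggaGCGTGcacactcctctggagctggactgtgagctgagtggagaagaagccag
Gsta3: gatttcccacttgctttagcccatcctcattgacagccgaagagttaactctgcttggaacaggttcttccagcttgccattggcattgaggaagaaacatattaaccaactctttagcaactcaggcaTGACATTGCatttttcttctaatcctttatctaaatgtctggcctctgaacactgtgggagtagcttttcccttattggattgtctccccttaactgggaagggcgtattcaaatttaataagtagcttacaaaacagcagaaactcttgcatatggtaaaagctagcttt
Sult1e1: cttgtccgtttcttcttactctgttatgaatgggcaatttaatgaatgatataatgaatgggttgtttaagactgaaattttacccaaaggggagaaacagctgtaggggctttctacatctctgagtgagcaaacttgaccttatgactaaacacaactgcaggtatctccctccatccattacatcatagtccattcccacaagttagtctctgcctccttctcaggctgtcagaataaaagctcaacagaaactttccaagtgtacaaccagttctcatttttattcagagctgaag
The Gstp1 and Gstp2 promoters aligned with 242 identical bases (80.7% of 300), and both hold 1 AP-1 match, whereas Gstp1 alone of the pair holds the GCGTG match. The Gsta1 and Gsta3 promoters shared 170 aligned bases (56.7%), with a GCGTG match in Gsta1 and an antioxidant core match in Gsta3. The alignments allowed gaps, and no unrelated promoters were aligned for comparison, so no shared origin is read from 56.7%. The Sult1e1 promoter has no match to any of the 3 motifs.

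Promoters were found for 57 of the 65 members, 68 promoters in all. The antioxidant core was present in 3 of the 68 (4.41%; Gsta3, Gstm5 and Gstm7), against 12.4% of all 32851 promoters of this length, and GCGTG in 14 (20.6%), against 32.4%. The AP-1 motif was searched because of the Gstp promoters, which are counted with the rest, so its share is not an independent comparison. It was present in 13 (19.1%), against 7.81%. They are those of Gstm5, Gstp1, Gstp2, Sult1b1, Sult1c1, Sult2a8, Sult2b1, Ugt1a6a, Ugt2a2, Ugt2b1, Ugt2b35, Ugt2b37 and Ugt2b38. Members that rose and members that fell in Vehicle Control are both among them. The antioxidant and AP-1 patterns can match overlapping bases. The antioxidant pattern required C after TGA. Gstp1 and Gstp2 hold the stretch TGAGTCAgc, which differs from the pattern in that base only and was counted only as AP-1. No pattern with G there was searched, nor were bases more than 250 before the start. The 4.41% is therefore a share for this pattern in these bases. It does not show that other members lack an antioxidant element. A match is a description of the letters and not a binding site.

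Values are counts normalized by the authors, whose deposited totals per library ran from 35.4 to 42.8 M in CLDN1 mAb, from 29.7 to 42.1 M in Vehicle Control and from 48.2 to 74.6 M in Regular diet mice. The totals were lower in Vehicle Control, at a mean of 35.4 M (SD 5.53, n = 6), than in Regular diet libraries, at 54.8 M (SD 11.1, n = 5; two-sided exact permutation test, p = 0.00433), so the choice of scaling bears on every comparison with Regular diet. Depth, estimated from the value of 1 fragment, was 27.7 to 59.5 M fragments per library. Regular diet replicate 1 stood apart, with the largest total of all libraries and the highest value of its group for 28 of the 50 tested members, so results are also given without it. Library codes in the labels form a run of their own for Regular diet mice, so any effect of that order and the diet cannot be told apart. Of 19 hepatocyte markers in the table, 16 were above 10 in every library, Alb (albumin) was listed at 0 in all 17, and Serpina1a and Serpina1c were listed at 0 in Regular diet replicates 1, 3 and 4.

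Tests used limma on log2(value + 1) over the 18624 genes that reached 10 normalized counts in 5 libraries or more, two-sided, with a Benjamini-Hochberg adjusted p under 0.05 as the threshold. Fold changes are on that log2 scale, which understates the change of low genes, and are given ± SE. Of the 65 members, 50 were tested (20 GST, 18 UGT and 12 SULT). The other 15 did not exceed 39.4 normalized counts in any library: Gstt4, Gsto2, Ugt1a2, Ugt1a8, Ugt2a1, Ugt2a2, Sult1c1, Sult2a1, Sult2a3 to Sult2a6, Sult3a1, Sult3a2 and Sult6b2, of which Sult3a2 was at 0 in all libraries. Sult1e1, Sult2a2, Sult2b1, Sult4a1, Sult6b1 and Ugt8a would not have passed the filter on their Regular diet values, and so had to differ from Regular diet; their calls say nothing about the families beyond that.

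In Vehicle Control against Regular diet livers, 11 of the 50 tested members rose and 29 fell, against 29.8% of all genes tested higher, 20.7% lower and 50.5% in either direction. GSTs moved both ways, with 5 of 20 higher and 10 lower, whereas 15 of 18 UGTs fell and 1 rose, and among 12 SULTs 5 rose and 4 fell. The 5 SULTs and the UGT that rose are the 6 members that the filter let pass only if they were higher, so nothing is read from those counts; without these 6, 5 of 44 members rose and 29 fell, all 5 of them GSTs. With equal library totals the balance of the GSTs turned to 9 higher and 6 lower, and 2 UGTs rose and 7 fell, while under quantile normalization 5 GSTs rose and 8 fell and 1 UGT rose and 10 fell. The median log2 fold change of the tested members was -0.88, and that of all genes was 0.04. The groups did not overlap for 24 of the 50, against 29.6% of all genes tested. The 24 include Sult1e1, Sult2a2, Sult2b1, Sult4a1 and Ugt8a, which the filter let pass only if they were higher, so nothing is read from that count. Without Regular diet replicate 1, 12 members rose and 26 fell, beside 32% and 25.4% of all genes.

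Scaling moved the balance of these counts. With every library scaled to the same total, which raised the median of all genes by 0.61, 17 members were higher and 16 lower, beside 50.3% and 6.79% of all genes, and with quantile normalization, which moved it by -0.17, 10 were higher and 22 lower, beside 23.9% and 28%. Of the 29 members that fell, 15 did so under both other scalings and without any 1 library: Gsta3, Gstk1, Gstm7, Gstp1, Gstt3, Gstz1, Sult2a7, Sult2a8, Sult5a1, Ugt1a5, Ugt2a3, Ugt2b1, Ugt2b38, Ugt2b5 and Ugt3a1. Among the GSTs that rose, Gsta1, Gstm2, Gstm3 and Gstm5 did so.

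**Figure D1:**
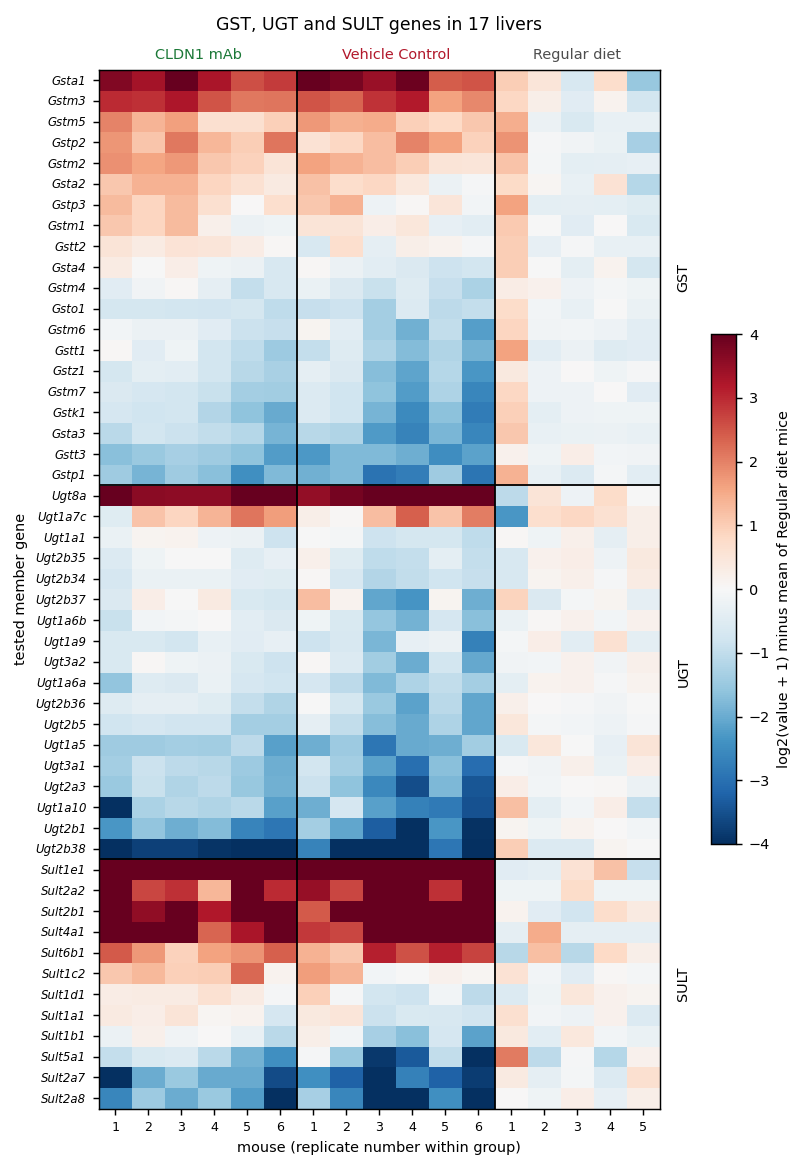
Heat map of the 50 tested members (down the page, by family) in 17 mice (across; CLDN1 mAb, Vehicle Control, Regular diet), coloured by log2(value + 1) minus the mean of the Regular diet mice, with the colour scale ending at 4 in either direction. UGTs are mostly blue and a set of GSTs and SULTs red in the CLDN1 mAb and Vehicle Control mice, and Regular diet replicate 1 stands apart from its group for many GSTs.

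Among GSTs, the alpha class held the largest rise and one of the larger falls. Gsta1, an alpha-class enzyme known to be induced by NRF2, measured 358, 594 and 1313 normalized counts (lowest, median and highest) in CLDN1 mAb livers, 318, 740 and 1073 in Vehicle Control livers, and 118, 82.7, 37.6, 96.3 and 19.9 in the Regular diet livers. All 12 CDA-HFD mice thus lay above all 5 Regular diet mice, and the log2 fold change was 3.37 ± 0.45 in Vehicle Control against Regular diet (adjusted p = 8.27e-06). Of the 50-base stretches in Gsta1 transcripts, 90.5% also occur in other genes, mostly Gm3776, so reads could be split between them. Gm3776 itself had a median of 223 in CLDN1 mAb, 286 in Vehicle Control and 53.8 normalized counts in Regular diet livers. The member Gsta2 shares 36% of its stretches with Gsta1. Summed over Gsta1 and Gsta2, the medians were 2712 in CLDN1 mAb, 2389 in Vehicle Control and 1185 in Regular diet livers. These sums overlapped between Vehicle Control (1189 to 3392) and Regular diet livers (484 to 1877). Gsta2 was the larger part of them, so they say little about a split between Gsta1 and Gm3776, whose sum was not made. Gm3776 alone ran from 107 to 340 in Vehicle Control and from 6.11 to 79.8 in Regular diet livers.

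Gsta3, the mouse enzyme known for conjugating activated aflatoxin, measured 30325, 53581 and 66023 in CLDN1 mAb livers, 17156, 26914 and 50800 in Vehicle Control livers, and 232853, 88789, 92069, 93523 and 89387 in the Regular diet livers. The groups did not overlap, Regular diet replicate 1 was far above its group, and Gsta3 fell by 1.95 ± 0.34 on the log2 scale in Vehicle Control (adjusted p = 0.000112). Gsta4, which favours the lipid peroxidation product hydroxynonenal, did not pass (log2 fold change -0.45 ± 0.26, adjusted p = 0.153), and neither did Gsta2 (0.47 ± 0.32, adjusted p = 0.238).

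The pi class split between neighbours on chromosome 19. Gstp1, the main pi-class GST and in mice more abundant in male liver, measured 6878, 11420 and 13935 in CLDN1 mAb livers, 4822, 7691 and 13882 in Vehicle Control livers, and 98198, 30171, 25259, 35028 and 27544 in the Regular diet livers. It fell by 2.29 ± 0.35 in Vehicle Control with no overlap between groups (adjusted p = 3.36e-05). Gstp2, which follows it in the cluster, measured 267, 402 and 594 in CLDN1 mAb livers, 202, 288 and 530 in Vehicle Control livers, and 469, 129, 122, 111 and 53.5 in the Regular diet livers. It rose by 1.19 ± 0.41 (adjusted p = 0.0224), with Regular diet replicate 1 inside the range of both other groups, and this call was lost without Vehicle Control replicate 4 or Regular diet replicate 5 (adjusted p up to 0.078) and under quantile normalization (0.55, adjusted p = 0.24).

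Gstp2 shares 49.1% of its 50-base stretches with Gstp1, so the split between the pair is uncertain. Their summed values, which a wrong split would not change, had medians of 11887 in CLDN1 mAb, 8057 in Vehicle Control and 30300 in Regular diet livers. Gstp3, which shares none, did not pass (0.45 ± 0.38, adjusted p = 0.344).

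The 7 mu-class genes lie together at 107895821 to 108044894 on chromosome 3 (GRCm38), and in Vehicle Control 3 of them rose and 3 fell. Gstm3 measured 13067, 20154 and 28348 in CLDN1 mAb livers, 9248, 16307 and 27548 in Vehicle Control livers, and 5358, 3598, 2191, 3363 and 1804 in the Regular diet livers, again with no overlap. It rose by 2.41 ± 0.31 (adjusted p = 5.86e-06), beside Gstm5 (1.25 ± 0.33, adjusted p = 0.0042) and Gstm2 (1.04 ± 0.30, adjusted p = 0.00825). On either side of Gstm3 and Gstm2 in the cluster, Gstm7 (-1.50 ± 0.33, adjusted p = 0.000989), Gstm6 (-1.13 ± 0.35, adjusted p = 0.0111) and Gstm4 (-0.73 ± 0.19, adjusted p = 0.00404) fell. The call of Gstm6 was lost with equal library totals (-0.51, adjusted p = 0.0969), and that of Gstm4 under both other scalings (-0.11 and -0.40). Gstm1, the most abundant member per kb of exon, measured 53607, 93835 and 151439 in CLDN1 mAb livers, 46530, 80687 and 90389 in Vehicle Control livers, and 130431, 62635, 45505, 63181 and 41125 in the Regular diet livers, and did not pass (0.17 ± 0.35, adjusted p = 0.714).

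The remaining GST classes fell where they passed. Gstt3, a theta-class enzyme, measured 682, 1097 and 1299 in CLDN1 mAb livers, 582, 782 and 951 in Vehicle Control livers, and 3614, 2885, 3861, 3027 and 2912 in the Regular diet livers. With every Vehicle Control value under every Regular diet value, it fell by 2.07 ± 0.17 (adjusted p = 3.72e-08), although it shares an exon region with Gm20441 on the same strand. Gstk1, the kappa-class enzyme of mitochondria and peroxisomes, had a median of 3843 in CLDN1 mAb and 2246 in Vehicle Control livers, against 14690, 5752, 6471, 6636 and 6668 in the Regular diet livers. It fell by 1.69 ± 0.38 in Vehicle Control (adjusted p = 0.00128). Gstz1, which also works as maleylacetoacetate isomerase in tyrosine breakdown, Gstt1 and Gsto1, a dehydroascorbate reductase, fell by 1.37, 1.26 and 0.95. The calls of Gstt1 and Gsto1 were lost with equal library totals (adjusted p = 0.0569 and 0.0703), and that of Gstt1 also under quantile normalization, while Gstt2 did not pass.

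**Figure D2:**
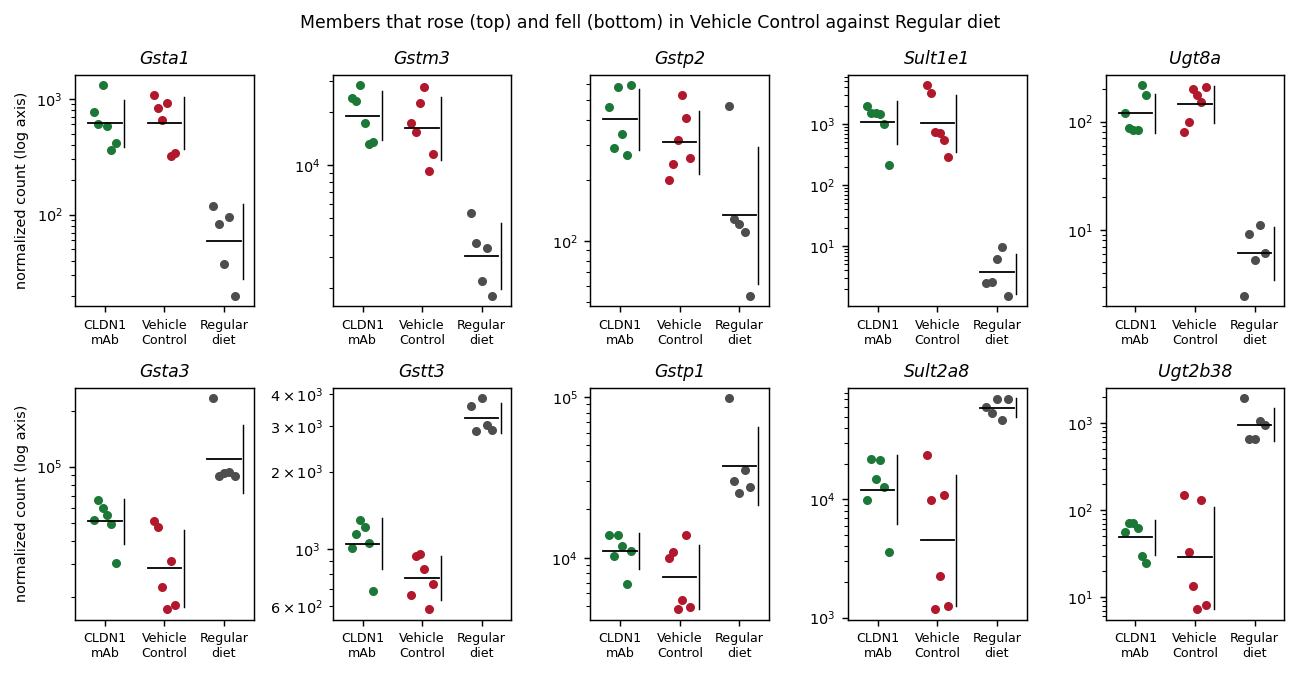
Normalized counts (log axis) of 5 members that rose and 5 that fell in Vehicle Control against Regular diet, with 1 point per mouse in CLDN1 mAb, Vehicle Control and Regular diet, a line at the mean of log2(value + 1) and a bar of 1 SD on that scale. In all of them except Gstp2, the CLDN1 mAb and Vehicle Control points lie apart from every Regular diet point, and the Gstp2 rise was not called under quantile normalization.

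Sult1e1, the estrogen sulfotransferase, had the largest fold change of any tested member. It passed the filter only through the CDA-HFD mice, so it had to be higher than in Regular diet livers. Its values were 211, 1482 and 2011 in CLDN1 mAb livers, 285, 730 and 4363 in Vehicle Control livers, and 2.46, 2.62, 6.13, 9.63 and 1.53 in the Regular diet livers, the last from an estimated 18 fragments in all. The log2 fold change was 7.77 ± 0.68 in Vehicle Control against Regular diet (adjusted p = 6.75e-08), and no 50-base stretch of its transcripts occurs in another gene. Its neighbours on chromosome 5, Sult1d1 (-0.30 ± 0.28, adjusted p = 0.393) and Sult1b1 (-0.95 ± 0.36, adjusted p = 0.0334), did not rise. The lower call of Sult1b1 was lost without Vehicle Control replicate 3, 4 or 6 or Regular diet replicate 1 or 3 (adjusted p up to 0.082), with equal library totals (-0.33), without a filter on low values and with only the 2 groups in the fit.

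Other SULTs that rose were scarce in Regular diet livers. Each passed the filter only through the CDA-HFD mice, so each had to be higher there. Sult2b1, which makes cholesterol sulfate in skin, measured 27.8, 54.8 and 91.7 in CLDN1 mAb livers, 16.4, 62 and 91.1 in Vehicle Control livers, and 2.46, 1.31, 0.875, 4.13 and 3.06 in the Regular diet livers (log2 fold change 4.13 ± 0.42 in Vehicle Control, adjusted p = 3.7e-07). Its exons overlap genes on the opposite strand, and strand was not stated. Sult4a1, known mainly from brain, had medians of 21.8 in CLDN1 mAb and 20.3 in Vehicle Control livers, against 0, 2.62, 0, 0 and 0 in the Regular diet livers (adjusted p = 5.74e-06). Sult2a2 had medians of 7.85 and 20.8 in those groups, against 0, 0, 0.875, 0 and 0 (adjusted p = 3.76e-05). For the last pair, the Regular diet values rest on an estimated 2 and 1 fragments, so no fold is given. Sult6b1 rose by 2.33 ± 0.51 (adjusted p = 0.00103), with the call lost under quantile normalization (0.97, adjusted p = 0.0682).

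The abundant Sult2a8, a bile acid sulfotransferase of mouse liver, moved the other way. It measured 3597, 13804 and 21876 in CLDN1 mAb livers, 1179, 6044 and 23695 in Vehicle Control livers, and 60349, 53210, 71060, 47207 and 70688 in the Regular diet livers. Every CDA-HFD mouse was under every Regular diet mouse, with a wide spread in Vehicle Control, and Sult2a8 fell by 3.73 ± 0.68 (adjusted p = 0.000193). Sult2a7, at the end of the same cluster on chromosome 7, fell by 3.28 ± 0.46 (adjusted p = 1.37e-05) at much lower values, 5.69 to 22.2 in Vehicle Control against 86.7 to 197 in Regular diet livers. Sult2a1 to Sult2a6, a group known to be higher in female mouse liver and sharing sequence with each other, summed to 3.7 to 47.4 in CLDN1 mAb, 8.06 to 125 in Vehicle Control and 0 to 2.63 in Regular diet livers. Sult5a1 fell by 2.40 ± 0.74 (adjusted p = 0.0115), with Regular diet values of 3653, 416, 847, 388 and 973. Sult1a1, the phenol sulfotransferase, and Sult1c2 did not pass.

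All but 1 of the UGTs that changed in Vehicle Control fell, and the falls ran across the Ugt2 cluster on chromosome 5, where 7 of 8 tested genes fell. Ugt2b38 measured 24.9, 59.8 and 71.7 in CLDN1 mAb livers, 7.39, 23.3 and 151 in Vehicle Control livers, and 1921, 657, 655, 1043 and 955 in the Regular diet livers. It was 31.9-fold lower in Vehicle Control, with an SE of 0.68 on the log2 scale and no overlap (adjusted p = 8.73e-06), although 37.4% of its 50-base stretches occur in other genes, mostly Ugt2b5. Summed over Ugt2b5, Ugt2b37 and Ugt2b38, the medians were 28497 in CLDN1 mAb, 17949 in Vehicle Control and 46587 in Regular diet livers.

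Ugt2b1, which shares no such stretch and conjugates steroids and drugs, measured 6053, 10221 and 14996 in CLDN1 mAb livers, 2386, 6763 and 17544 in Vehicle Control livers, and 48302, 39351, 49469, 45686 and 41774 in the Regular diet livers. It fell by 2.87 ± 0.41 (adjusted p = 1.79e-05). Ugt2a3 fell by 2.30 ± 0.38 (adjusted p = 6.69e-05), also without overlap between groups. Ugt2b5 and Ugt2b36, the UGTs with the highest levels per kb, fell by 1.39 ± 0.27 (adjusted p = 0.000368) and 1.25 ± 0.31 (adjusted p = 0.00291), and the call of Ugt2b36 was lost under quantile normalization (-0.36, adjusted p = 0.181).

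Ugt2b34 and Ugt2b35 fell by 0.74 and 0.60 on the authors' scaling only. Ugt2b34 was at -0.12 with equal library totals and turned to 0.11 under quantile normalization, and Ugt2b35 turned to 0.02 and 0.08. Ugt2b35 was also not called without Vehicle Control replicate 3, 4 or 6 or Regular diet replicate 2, 3 or 5 (adjusted p up to 0.099), without a filter or with only the 2 groups in the fit.

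The Ugt1a genes share their last exons and differ in the first, so 52.1 to 79.8% of each one's 50-base stretches occur in another gene and the split among them is uncertain. Summed over all 9, the values were 30884 to 48870 in CLDN1 mAb, 22771 to 43936 in Vehicle Control and 47198 to 60216 in Regular diet livers. Vehicle Control and Regular diet sums did not overlap on the authors' scaling, which is the only one these sums are given on. Of 7 tested, 6 fell, led by Ugt1a10 (-2.31 ± 0.85, adjusted p = 0.0303) and Ugt1a5 (-1.94 ± 0.27, adjusted p = 1.07e-05). Ugt1a10 was scarce, at 9.33 to 70.9 in Vehicle Control against 58.1 to 265 in Regular diet livers. Its call was lost without Vehicle Control replicate 4, 5 or 6 or Regular diet replicate 1 or 4 (adjusted p up to 0.0683), without a filter and with equal library totals (adjusted p = 0.0898).

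Ugt1a1, the bilirubin UGT, measured 16864, 25432 and 32486 in CLDN1 mAb livers, 14786, 18230 and 29091 in Vehicle Control livers, and 30846, 26568, 34477, 23093 and 35110 in the Regular diet livers. The groups overlapped, and its fall of 0.56 ± 0.22 (adjusted p = 0.0393) turned to 0.06 with equal library totals and to 0.33 under quantile normalization. The call was also lost without any 1 of Vehicle Control replicates 3, 4, 5 and 6 and Regular diet replicates 1, 3 and 5 (adjusted p up to 0.0929), without a filter and with only the 2 groups in the fit. The phenol-conjugating Ugt1a6a and Ugt1a6b fell by 1.17 and 1.09 and Ugt1a9 by 1.09, all of which were lost with equal library totals (adjusted p = 0.0577, 0.108 and 0.249), Ugt1a9 also under quantile normalization. Ugt1a7c, in the same cluster, was at 1.19 ± 0.58 and did not pass (adjusted p = 0.0939).

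Outside these clusters, Ugt3a1 fell (log2 fold change with a 95% interval of -2.71 to -1.28, adjusted p = 0.000101) and Ugt3a2 by 1.11 ± 0.31 (adjusted p = 0.00657), the call of Ugt3a2 being lost under both other scalings. In human, UGT3A enzymes use sugars other than glucuronic acid. Ugt8a, which adds galactose to ceramide for the lipids of myelin, was the UGT that rose, and it passed the filter only if higher. It measured 83.8, 104 and 217 in CLDN1 mAb livers, 80.7, 164 and 210 in Vehicle Control livers, and 2.46, 9.19, 5.25, 11 and 6.11 in the Regular diet livers, which is 4.35 ± 0.36 on the log2 scale in Vehicle Control (adjusted p = 3.97e-08).

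Levels can be set beside each other only per kb of exon. The length used joins all annotated exons of a gene, for example 4344 bases for Gsta3 and 1473 for Gstm1. Ranks per kb and shares therefore depend on which exons are annotated. Summed over all GSTs, the median level per kb was 140244 in CLDN1 mAb, 107035 in Vehicle Control and 125425 in Regular diet livers, and the ranges overlapped. Gstm1 made up 45.8 ± 5.12% of the GST sum in CLDN1 mAb, 47 ± 4.06% in Vehicle Control and 30.1 ± 3.16% in Regular diet livers (mean ± SD, n = 6, 6 and 5), while Gstp1 made up 5.51 ± 1.48%, 5.31 ± 2.85% and 17.1 ± 2.4%. Gstm3 made up 11 ± 0.447% in CLDN1 mAb, 12.6 ± 4.35% in Vehicle Control and 1.67 ± 0.391% in Regular diet livers, and these shares were not tested. Such shares do not change when all values of a library are multiplied by a constant, as with equal library totals. Under quantile normalization they can change, and they are not given for it.

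The summed UGT level per kb was 50407 to 83054 in CLDN1 mAb, 30969 to 93575 in Vehicle Control and 107848 to 127352 in Regular diet livers, so that every Regular diet mouse was above every CDA-HFD mouse on the authors' scaling. Ugt2b5 held 20.1 ± 1.72%, 20.7 ± 0.732% and 22.3 ± 3.33% of that sum in the same groups, whereas Ugt2b1 held 5.7 ± 1%, 5.2 ± 1.79% and 14.8 ± 1.39%. The SULT sum per kb had medians of 19706 in CLDN1 mAb, 10066 in Vehicle Control and 30498 in Regular diet livers. Sult2a8 was 22.3 ± 7.79% of it in CLDN1 mAb, 14.8 ± 10.5% in Vehicle Control and 60.9 ± 7.55% in Regular diet livers, and Sult1a1 50 ± 6.16%, 55.1 ± 11.6% and 27.5 ± 7.88%.

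**Figure D3:**
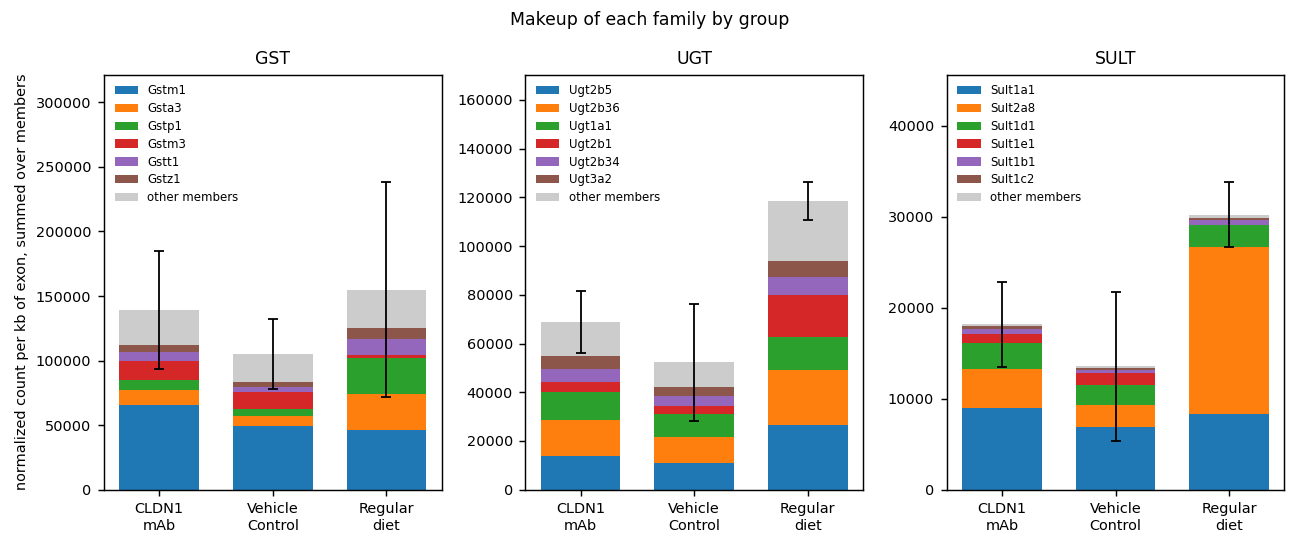
Mean normalized count per kb of exon, stacked over the members of each family (6 most abundant members in colour, others in grey), in CLDN1 mAb, Vehicle Control and Regular diet livers, with an error bar of 1 SD of the family sum over mice. Gstp1 and Sult2a8 take a smaller part of their family in the CLDN1 mAb and Vehicle Control bars than in the Regular diet bar.

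CLDN1 mAb against Vehicle Control is the comparison of the antibody itself. No tested member passed the threshold, and neither did any of the 18624 genes (0% called; smallest adjusted p = 0.659 in limma). At an unadjusted p under 0.05 there were 8 of 50 members and 1391 of all genes (7.47%), and the 8 were all higher in CLDN1 mAb mice. The fold change was positive for 42 of the 50 members, with a median of 0.44 on the log2 scale, against -0.05 over all genes. With equal library totals 39 were positive (median 0.26), and under quantile normalization 44 (median 0.38). The Vehicle Control mice were not alike. On the main axis of variation over all tested genes (56.7% of variance), their replicates 3, 4 and 6 lay at -106.3, -108.3 and -112.1. Vehicle Control replicates 1, 2 and 5 lay at -12, -38.11 and -51.32, and CLDN1 mAb mice at -67.16 to -22.07. The part of Vehicle Control replicates 3, 4 and 6 in the positive fold changes was not tested. No member separated the 2 groups without overlap, against 0.322% of all genes tested.

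The smallest p among GSTs belonged to Gstt3 (log2 fold change 0.44 ± 0.16, 95% interval 0.10 to 0.79) and Gsta3 (0.84 ± 0.32, 0.16 to 1.51), both with an adjusted p of 0.659. Among UGTs they were Ugt1a6b (0.75 ± 0.26, 0.21 to 1.29), at 3836, 5948 and 7223 normalized counts in CLDN1 mAb and 1930, 3474 and 6370 in Vehicle Control livers, and Ugt2a3 (0.96 ± 0.36, 0.20 to 1.71). Among SULTs they were Sult1d1, which sulfates catecholamines in mice (0.61 ± 0.27, 0.04 to 1.18), and Sult2a8 (1.42 ± 0.65, 0.06 to 2.79). The CLDN1 mAb values of Sult2a8 lay within the much wider Vehicle Control range.

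The members with the smallest p in the other direction were Gstm5 (-0.04 ± 0.31) and Gsta1 (-0.02 ± 0.43), Ugt8a (-0.28 ± 0.35, 95% interval -1.01 to 0.45) and Ugt1a7c (-0.08 ± 0.55), and Sult2a2 (-0.99 ± 0.62, -2.29 to 0.31) and Sult6b1 (-0.51 ± 0.49). Gsta1 turned positive under quantile normalization (0.03). Sult1e1, at 0.04 ± 0.65, had an interval of -1.32 to 1.41. In Vehicle Control, replicate 1 had the highest value of the group for 22 of the 29 members lower in that group, and replicate 6 the lowest for 14. In CLDN1 mAb mice, replicate 6 was the lowest for 20 of the same 29.

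**Figure D4:**
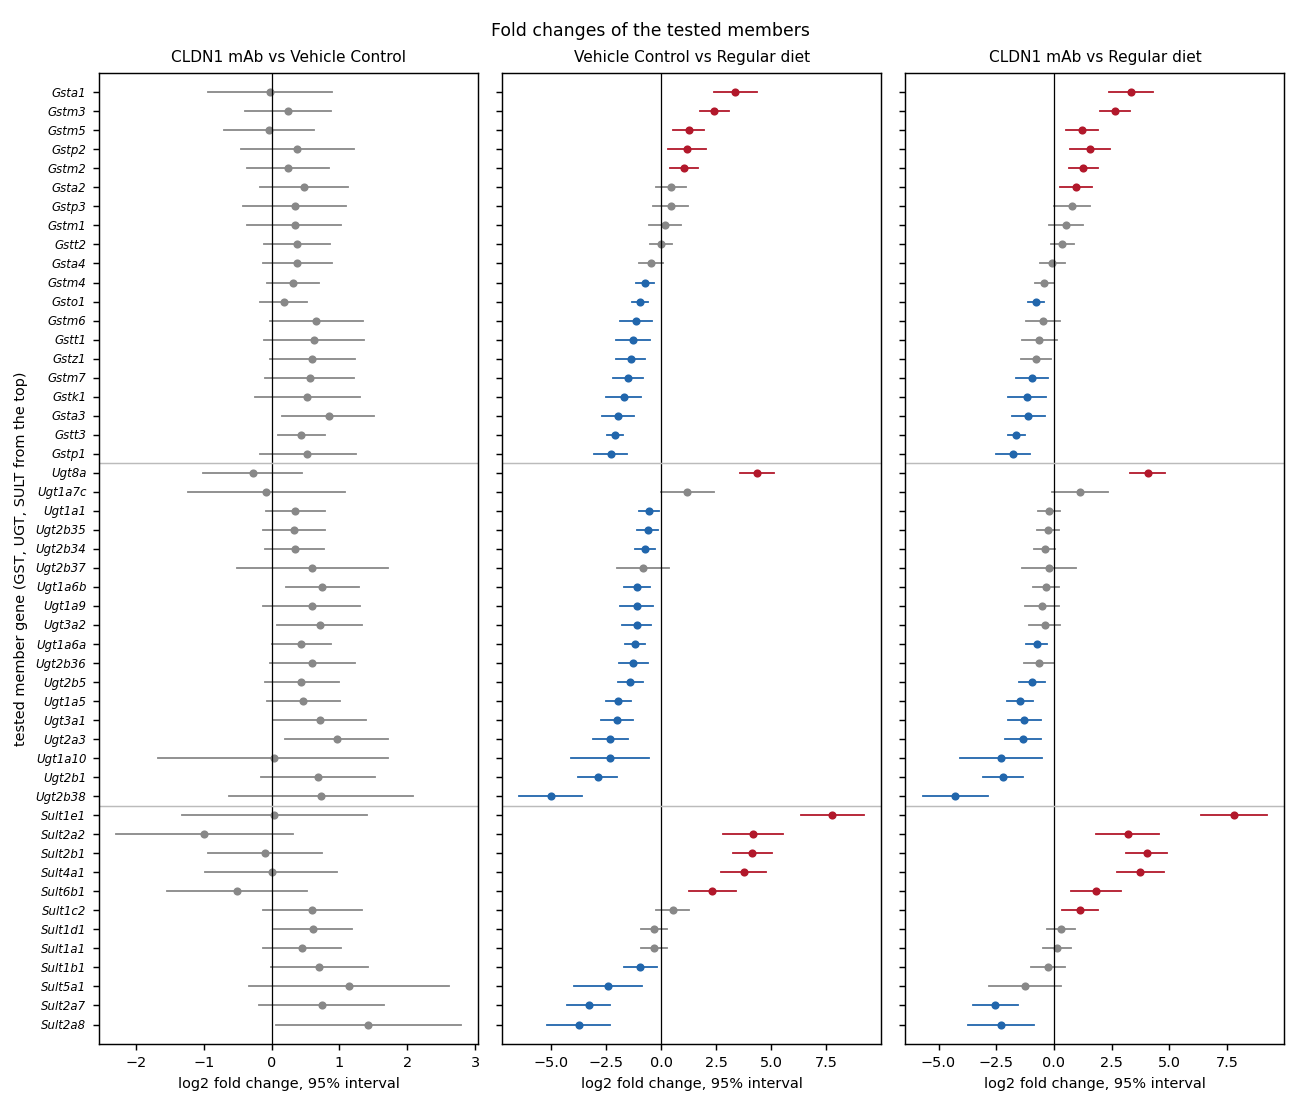
Log2 fold changes with 95% intervals of the 50 tested members (GST, UGT and SULT from the top) for CLDN1 mAb against Vehicle Control, Vehicle Control against Regular diet, and CLDN1 mAb against Regular diet, on separate axes, red for higher and blue for lower at an adjusted p under 0.05 on the authors' scaling. No member is coloured on the left, 11 are red and 29 blue in the middle, and 13 are red and 16 blue on the right; with equal library totals the middle counts were 17 and 16.

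CLDN1 mAb against Regular diet uses the same Regular diet mice as the comparison of Vehicle Control, so the 2 sets of values are given side by side and not as independent results. In it 13 members rose and 16 fell, against 24.8% of all genes tested higher, 14.1% lower and 38.9% in either direction. The groups did not overlap for 24, against 29%, and those 24 again include Sult1e1, Sult2a2, Sult2b1, Sult4a1 and Ugt8a. By family, 6 of 20 GSTs rose and 6 fell, 1 of 18 UGTs rose and 8 fell, and 6 of 12 SULTs rose and 2 fell, where 5 of the SULTs and the UGT that rose are again those the filter let pass only if higher. Without Regular diet replicate 1 the counts were 15 and 14 (27.6% and 20.9% of all genes), with equal library totals 18 and 11 (37.9% and 4.46% of all genes), and under quantile normalization 14 and 10 (19.1% and 20%).

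Among members with a mean of at least 50 normalized counts in CLDN1 mAb livers, the largest rises were those of Sult1e1 (7.81 ± 0.68, adjusted p = 9.09e-08), Ugt8a (4.07 ± 0.36, adjusted p = 1.24e-07), Sult2b1 (4.03 ± 0.42, adjusted p = 7.32e-07), Gsta1 (3.36 ± 0.45, adjusted p = 1.27e-05) and Gstm3 (2.65 ± 0.31, adjusted p = 3e-06). Gstp2 (1.57 ± 0.41), Gstm2 (1.28 ± 0.30) and Gstm5 (1.21 ± 0.33) also rose, as did Sult4a1, Sult2a2 and Sult6b1, of which the last pair was not called under quantile normalization (adjusted p = 0.086 and 0.571). Sult1e1, Ugt8a, Sult2b1, Sult4a1, Sult2a2 and Sult6b1 passed the filter only through their values outside Regular diet. They had to be higher, so nothing is read from their rank. Gsta2 (0.95 ± 0.32, adjusted p = 0.0266) and Sult1c2 (1.12 ± 0.37, adjusted p = 0.0214) passed here and not in Vehicle Control; that difference is the CLDN1 mAb against Vehicle Control test above, in which neither passed. The call of Gsta2 was lost without CLDN1 mAb replicate 2 or 3 or Regular diet replicate 3 or 5 (adjusted p up to 0.0891), and that of Sult1c2 without CLDN1 mAb replicate 5 or Regular diet replicate 3 (adjusted p up to 0.0571) and under quantile normalization.

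Falls were led by Ugt2b38 (-4.27 ± 0.68, adjusted p = 6.67e-05), Sult2a7 (-2.54 ± 0.46, adjusted p = 0.000265), Sult2a8 (-2.30 ± 0.68, adjusted p = 0.012), Ugt2b1 (-2.19 ± 0.41, adjusted p = 0.000395), Gstp1 (-1.76 ± 0.35, adjusted p = 0.000626) and Gstt3 (-1.63 ± 0.17, adjusted p = 8.33e-07). The call of Sult2a8 was lost under quantile normalization (adjusted p = 0.0579). Ugt1a10, at -2.28 ± 0.85, was listed at about 0 in CLDN1 mAb replicate 1, without which it was -1.37, and its call was lost without CLDN1 mAb replicate 6 or Regular diet replicate 1, 2, 3 or 4 (adjusted p up to 0.0804), without a filter, with only the 2 groups in the fit and with equal library totals. Gstk1 and Gstm7 lost theirs without CLDN1 mAb replicate 6 or Regular diet replicate 1 (adjusted p up to 0.0554 and 0.0739), Gstm7 also without CLDN1 mAb replicate 5, Regular diet replicate 4 or a filter, and both under each other scaling. The other falls were those of Gsta3 (-1.11), Gsto1 (-0.77), Ugt1a5 (-1.47), Ugt2a3 (-1.34), Ugt3a1 (-1.29), Ugt2b5 (-0.95) and Ugt1a6a (-0.74). Gsto1 was not called with equal library totals, Ugt2a3 and Ugt2b5 under quantile normalization, and Ugt1a6a under either.

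Genes that feed, carry out and follow the conjugations were read from fixed lists. Counts of these lists, and of the sex-biased genes and cell type markers below, stand beside the shares of all genes tested. In Vehicle Control against Regular diet 29.8% were higher and 20.7% lower (50.3% and 6.79% with equal library totals, 23.9% and 28% under quantile normalization). In CLDN1 mAb against Regular diet they were 24.8% and 14.1% (37.9% and 4.46%, and 19.1% and 20%, under the same scalings). Counts near these shares are not results about a list. Some genes stand in more than 1 list, so the lists are not separate results. Nqo1, Ephx1, Gclc, Gclm, Gsr, Abcc3 and Abcc4 are also NRF2 targets, and Hnf4a and Cebpa are also hepatocyte markers. Slco1a1 is also a male-biased gene, and Prom1 and Cyp17a1 are both female-biased genes and tissue or cell markers. In Vehicle Control against Regular diet, 4 of 17 tested genes of cofactor supply rose and 4 fell. Bpnt1, which clears the spent sulfate donor (1642 ± 357 against 3534 ± 238 normalized counts, mean ± SD, log2 fold change -1.13 ± 0.15), and Papss2, a synthase of PAPS (-1.34 ± 0.24), fell. Gusb, the glucuronidase that reverses glucuronidation, rose (1.42 ± 0.23). With equal library totals, the counts of this list were 10 higher and 2 lower. Of 16 other conjugating and phase II enzymes, 3 rose and 10 fell, led by the quinone reductase Nqo1 (2.10 ± 0.19) and the methyltransferase Inmt (-3.12 ± 0.30), and under each other scaling 3 rose and 6 fell.

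Of 11 transporters of conjugates and bile, 3 rose and 7 fell, among them Abcc1 (2.38 ± 0.20), an efflux pump for glutathione conjugates, Abcc5 (2.75 ± 0.31) and the bile salt export pump Abcb11 (12465 ± 5689 in Vehicle Control against 46679 ± 7989 normalized counts in Regular diet livers, mean ± SD). Of 21 xenobiotic receptors and liver factors, 3 rose and 11 fell, with Maff higher (2.27 ± 0.25) and the pregnane X receptor gene Nr1i2 (-0.95 ± 0.15) lower. With equal library totals 6 of that list rose and 4 fell. NRF2 targets outside the families did not move one way, with 8 of 20 higher, such as Srxn1 (1.83 ± 0.21), and 6 lower, such as Me1 (-2.43 ± 0.23). With equal library totals the counts were 3 and 3 for the transporters and 9 and 2 for the NRF2 targets. In CLDN1 mAb against Regular diet, 4 cofactor genes rose and 3 fell, against 3 and 5 of the other phase II enzymes, 3 and 4 of the transporters, 2 and 7 of the receptors and factors, and 8 and 5 of the NRF2 targets. With equal library totals those counts were 8 and 0 of the cofactor genes, 3 and 3 of the other phase II enzymes, 3 and 2 of the transporters, 5 and 0 of the receptors and factors, and 9 and 2 of the NRF2 targets. No gene of these 5 lists passed in CLDN1 mAb against Vehicle Control.

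Sex-biased genes of mouse liver outside the families also moved in these male mice. In Vehicle Control against Regular diet, 12 of 18 tested female-biased genes rose and 2 fell, for example Cyp2b9 (6.98 ± 0.62, adjusted p = 8.32e-08), while 18 of 20 male-biased genes fell and none rose, for example Elovl3 (-6.89 ± 0.40, adjusted p = 8.66e-10). Under both other scalings the male-biased count was 17 lower and 0 higher. In CLDN1 mAb against Regular diet, 11 female-biased genes rose and 1 fell, and 16 male-biased genes fell and 0 rose, while none of either list passed in CLDN1 mAb against Vehicle Control. Their part in the changes of Sult1e1, Gstp1 or the UGTs was not tested.

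Markers of cell types moved with the same comparison. In Vehicle Control against Regular diet, 14 of 18 tested hepatocyte markers fell and 2 rose (7 fell and 4 rose under quantile normalization). The 2 that rose were Serpina1a and Serpina1c, whose calls rest on the 3 Regular diet libraries in which they were listed at 0, beside 24235 and 25831 for Serpina1a in the other 2. The summed level per kb of all hepatocyte markers was 1013018 to 2315123 in CLDN1 mAb, 423028 to 2096484 in Vehicle Control and 1721634 to 5896668 in Regular diet livers. Regular diet replicate 1 stood apart here too. Its Apoa1 was 1651080, against 363001 to 471465 in the other Regular diet mice, and its Apoa2 1242000, against 227720 to 261022. Other markers, such as Cps1 and Apob, were lowest of the group in that mouse. All 11 cholangiocyte markers rose, with sums of 24115 to 47021 in CLDN1 mAb, 26861 to 60395 in Vehicle Control and 1786 to 2623 in Regular diet livers. Of stellate cell and fibroblast markers 8 of 11 rose and none fell (4437 to 15716, 4751 to 21705 and 1273 to 1980 in the same groups), and of macrophage markers 6 of 12 rose and 3 fell (53746 to 92188, 36143 to 108942 and 5916 to 18738).

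Of T, B and NK cell markers 4 of 9 rose (440 to 1024 in CLDN1 mAb, 485 to 1034 in Vehicle Control and 175 to 382 in Regular diet livers; 7 rose with equal library totals), and of endothelial markers 1 of 9 rose and 3 fell (495 to 2801, 568 to 3364 and 2395 to 3643), with 1 higher and 0 lower with equal library totals. Of gut, kidney, pancreas and adrenal markers 1 of 5 tested rose and 2 fell (4371 to 9327, 3501 to 11003 and 5172 to 13419), and Slc12a1 of kidney and Prss1 of pancreas were at 0 in all libraries.

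In CLDN1 mAb against Regular diet, 9 hepatocyte markers fell and 2 rose (5 and 2 with equal library totals, and 2 and 4 under quantile normalization), all 11 cholangiocyte markers rose, 8 stellate cell markers rose and none fell, and 6 macrophage markers rose and 4 fell. In CLDN1 mAb against Vehicle Control no marker passed, and the median log2 fold change of the hepatocyte markers was 0.60, beside 0.44 for the tested members. In bulk liver, fewer cells of a type and less RNA per cell cannot be told apart, and the part of cell composition in the changes above was not tested.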

How the data were processed

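Normalized counts per gene (unit: signal) were deposited by the authors as 1 table for 17 libraries, with Cufflinks 2.2.1 and mm10 named in the submitters' processing notes. Aligner, annotation, strand setting and scaling option are not given in the sources used here. Gene symbols were matched to 52398 of 52545 identifiers (99.7%), and exon lengths, coordinates and overlaps came from GENCODE M21 on GRCm38. Groups came from sample titles. The genes that reached 10 in 5 libraries or more were fitted as log2(value + 1) with limma 3.58.1 in R 4.3.3 (trend, group as the only term, all 17 libraries). This procedure was tested on simulated data with independent normal values for each gene. That simulation held no scaling difference, no deviation shared between genes and no outlying library, so it does not bear on these. Spread between individual mice is what the p-values measure. In each family, members named were up to 4 per direction with the largest called fold change against Regular diet and a mean of 50 or more in the group where it was higher, the 2 per direction with the smallest p in CLDN1 mAb against Vehicle Control, and the 3 with the highest level per kb; of each list, up to 3 genes with the smallest p. The values of 1 list gene that this rule names are not reported here. Further members are given to complete a cluster or class, and Gm3776 was chosen after its values were seen. Members and lists were chosen with earlier results of these data known. Alternatives were another pseudocount (10), no filter, 2 scalings, only the groups compared, failed estimates as missing, replicate and library code blocks, and each library left out.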

Additional observations from a re-analysis of the deposited data

Results flagged for a closer look

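In 13 of 96 groups of libraries examined over 32 named members, 1 library lay far from the rest of its group by Dixon's criterion, which chance meets in about 1 in 20 groups. Regular diet replicate 1 accounted for 9 of the 13, always as the highest of 5 mice: Gsta3 at 232853, Gstk1 at 14690, Gstm1 at 130431, Gstm2 at 7972, Gstm5 at 1228, Gstp1 at 98198, Gstp2 at 469, Sult5a1 at 3653 and Ugt2b5 at 66689 normalized counts. Its deposited total was also the largest. The other 4 were Sult1c2 at 1286 in CLDN1 mAb replicate 5, Sult1d1 at 10958 in Vehicle Control replicate 1, Ugt1a10 at 70.9 in Vehicle Control replicate 2, and Sult2a2 at 0.875 in Regular diet replicate 3, an estimated 1 fragment where the other 4 mice had none.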

How the results depend on the processing

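In Vehicle Control against Regular diet, the counts of members moved by more than 1.5 times with equal library totals (17 higher and 16 lower, against 11 and 29), and in CLDN1 mAb against Regular diet the lower count did so under quantile normalization (10, against 16); the cause was not tested. With the replicate block the counts were 13 higher and 26 lower for Vehicle Control (29% and 20.4% of all genes), 14 and 15 for CLDN1 mAb against Regular diet (23.7% and 13.8%), and 0 for CLDN1 mAb against Vehicle Control. The numbers do not pair the mice: correlations of same-numbered deviations ran from -0.344 to 0.656. CLDN1 mAb against Vehicle Control gave 0 called members under every alternative, the library code block included. Of all 50 tested members, 6 turned direction in Vehicle Control against Regular diet with equal library totals and 7 under quantile normalization, of which 2 and 3 had been called: Ugt1a1 (0.06 with equal library totals, 0.33 under quantile normalization), Ugt2b34 (0.11 under quantile normalization) and Ugt2b35 (0.02 and 0.08). In CLDN1 mAb against Vehicle Control, fold changes near 0 turned positive in some settings for Gsta1 (0.03 under quantile normalization, -0.24 to 0.14 over the libraries left out), Gstm5 (-0.19 to 0.07) and Ugt1a7c (-0.31 to 0.24). Depth limits the genes near 0 in Regular diet mice, whose estimated fragments over all 5 libraries were 18 for Sult1e1, 8 for Sult2b1, 6 for Sult6b1, 2 for Sult4a1 and 1 for Sult2a2.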
